A study of Mus musculus with 35 samples.

Results

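A set of 10 genes of iron and heme recycling, out of 54735 gene symbols counted, was followed in sorted macrophages of the mouse fatty liver. The genes were chosen as a list of known iron and heme handling symbols, namely Slc48a1, Hmox1, Blvra, Blvrb, Slc40a1, Slc11a1, Tfrc, Cp, Fth1 and Ftl1, and all 10 were among the 13421 genes that passed the filter of over 1 CPM (read counts scaled to the sequencing depth of a sample) in at least 5 samples. The RNA-seq series held 35 samples from livers of C57Bl/6J mice, which per the study's methods were males put on their diet from 5 weeks of age. Resident Kupffer cells (ResKCs, sorted as CLEC4F+ TIM4+) came from mice on a standard diet (SD) for 12 weeks (n = 7) or 24 weeks (n = 6), and from mice on a western diet (WD), rich in fat and cholesterol with sugars in the drinking water, for 12 weeks (n = 5) or 24 weeks (n = 6). Monocyte-derived KCs (moKCs, CLEC4F+ TIM4-, n = 5) and CLEC4F- macrophages (CLEC4F- macs, TIM4-, n = 6) came from the 24 week WD alone, so no SD counterpart bears on them. The diet field of the 5 samples of ResKCs at 12 weeks of WD reads as the standard diet while their titles and descriptions name the western diet, and they were treated as WD.

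Kupffer cells clear aged red blood cells and the hemoglobin they spill. Heme released in the phagolysosome reaches the cytosol through the transporter HRG1 (Slc48a1). Heme oxygenase 1 (Hmox1) opens the ring to give biliverdin, carbon monoxide and iron, and biliverdin reductase A (Blvra) turns this biliverdin to bilirubin. Blvrb encodes biliverdin reductase B, which is not taken here as an enzyme of that step. The iron is then stored in ferritin, a shell of heavy (Fth1) and light (Ftl1) chains, or leaves the cell through ferroportin (Slc40a1), the only known iron exporter of mammals. Slc11a1 (NRAMP1) carries iron out of the phagosome, Tfrc (transferrin receptor) takes up iron bound to transferrin, and Cp (ceruloplasmin), made mainly by hepatocytes, oxidises exported iron. C57BL/6 mice carry a loss-of-function allele of Slc11a1, so its mRNA level says nothing of a working protein in these animals.

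Total counts lay between 11568590 and 15163845 per sample. The Kupffer cell list (8 genes, among them Clec4f and Timd4) summed to 25980 to 37090 CPM in the 24 samples of ResKCs, to 19630 to 26210 CPM in moKCs and to 2337 to 13360 CPM in CLEC4F- macs, and Timd4 was at 547 to 1358 CPM in ResKCs against 2.85 to 30.3 CPM in moKCs. At 24 weeks of WD, 6 of the 8 genes of the list were higher in ResKCs than in CLEC4F- macs. Cd207 was lower (-1.47 on the log2 scale), beside 33% of all genes called (edgeR quasi-likelihood test, adjusted p under 0.05). Against moKCs 2 of the 8 were higher and 1 lower (-2.77), beside 2.99% of all genes. CLEC4F- mac replicate 4 stood apart from its group, with 5488 CPM of Clec4f where the other 5 samples had 294 to 1539 CPM. The comparisons with this group are therefore also given without that sample. In sorted bulk samples, fewer cells of a type and less RNA per cell cannot be told apart.

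Iron-regulatory proteins bind a hairpin, the iron-responsive element, when iron is scarce: in a 5′ UTR it blocks translation, and in the 3′ UTR of Tfrc it protects the mRNA from decay. The element was looked for on the transcript strand of GENCODE M21 protein-coding transcripts (GRCm38) as a C, 5 stem bases, the loop CAGTGN and 5 bases that pair with the stem, G-T pairs allowed. The matches in 4 of the 10 genes are shown. For Fth1, Ftl1 and Slc40a1, with the element in the 5′ UTR, an mRNA level and a protein level need not move together. For Tfrc the element acts on the mRNA level itself. Capitals mark the 6 bases of the loop.
Fth1, 5′ UTR, chr19:9982732-9982760, plus strand: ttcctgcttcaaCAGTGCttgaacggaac
Ftl1, 5′ UTR, chr7:45459779-45459807, minus strand: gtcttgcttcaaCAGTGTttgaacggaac
Slc40a1, 5′ UTR, chr1:45925465-45925493, minus strand: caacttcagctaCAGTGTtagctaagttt
Tfrc, 3′ UTR, chr16:32631219-32631247, plus strand: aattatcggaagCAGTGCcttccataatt
Tfrc, 3′ UTR, chr16:32631598-32631626, plus strand: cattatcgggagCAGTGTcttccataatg
Tfrc, 3′ UTR, chr16:32631663-32631691, plus strand: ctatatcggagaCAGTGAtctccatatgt
Tfrc, 3′ UTR, chr16:32631710-32631738, plus strand: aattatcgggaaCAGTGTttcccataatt
Taking 1 transcript per gene, the pattern was present in the first 300 bases of 24 of 21767 genes (0.11%) and in the 3′ UTR of 100 of 21460 genes (0.466%). Tfrc, with 4 matches, was the only gene of these with more than 1 match in its 3′ UTR. The other 6 genes had no match to these letters in any annotated protein-coding transcript.

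Together the 10 genes took 2.06% ± 0.172 of all counts in WD ResKCs at 24 weeks (SD, n = 6), 1.53% ± 0.150 in moKCs (n = 5) and 1.40% ± 0.139 in CLEC4F- macs (n = 6). Levels were also taken per kilobase of the union of all annotated exons of a gene. That union was 3469 bases for Fth1, 1340 for Ftl1 and 9000 for Slc40a1. The transcripts Fth1-201, Ftl1-201 and Slc40a1-201 have 929, 968 and 3370 bases, so the order of these genes depends on the length used. On the union scale Ftl1 led in all 6 groups, with group means of 1960 (moKCs) to 2674 (SD ResKCs at 24 weeks) CPM per kb. In WD ResKCs at 24 weeks it was followed by Fth1 at 1340, Hmox1 at 1325 and Slc40a1 at 943.5 CPM per kb. In CLEC4F- macs Fth1 stood at 1454, Hmox1 at 422.7 and Slc40a1 at 310 CPM per kb. The 2 ferritin genes ranked first and second on this scale in both populations. Tfrc (6.47 to 15.1 CPM per kb) and Cp (3.14 to 5.40 CPM per kb) were the least abundant of the 10 in all 6 groups.

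At 24 weeks of WD, ResKCs had more mRNA of the heme transporter Slc48a1 and of Hmox1 than both other populations, and CLEC4F- macs had less Blvrb and Slc40a1 than both KC populations. Of the 10 genes, 7 were higher and 0 lower in WD ResKCs than in CLEC4F- macs, where 33% of all genes tested were called (17% higher, 16.1% lower; edgeR quasi-likelihood test, adjusted p under 0.05). The median log2 fold change of the 10 was 0.76 against -0.02 over all genes. Against moKCs, 3 of 10 were higher and 0 lower in ResKCs (2.99% of all genes called, 2% higher, 0.991% lower), with a median of 0.26 against -0.02. moKCs in turn exceeded CLEC4F- macs in 4 of 10 genes and fell below them in 1 (16.4% of all genes called, 9.34% higher, 7.09% lower), or in 3 and 2 of 10 when scaled by library size alone, with a median of 0.35 against 0.005. An absolute log2 fold change over 1 as well was reached by 2, 1 and 2 of the 10 genes in these 3 comparisons, and by 10.4%, 1.39% and 5.05% of all genes. All samples of the first population lay above all of the second for 5, 4 and 2 of the 10 genes, and for 8.81%, 2.17% and 4.2% of all genes. Scaling by library size alone shifted the median of all genes by -0.12 in the first of them and the share of higher among all calls from 51.4% to 33.3%, and left 6 of the 10 genes higher and 0 lower. The general macrophage list (Adgre1, Csf1r, Fcgr1, Cd68 and Mertk) moved by a like amount, with medians of 0.75, 0.27 and 0.52 in the 3 comparisons and 4, 1 and 3 of its 5 genes higher and 0 lower, and its part in the shift of the 10 was not tested. ResKCs, moKCs and CLEC4F- macs each enter more than 1 of these comparisons, which are therefore not independent of each other.

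**Figure D1:**
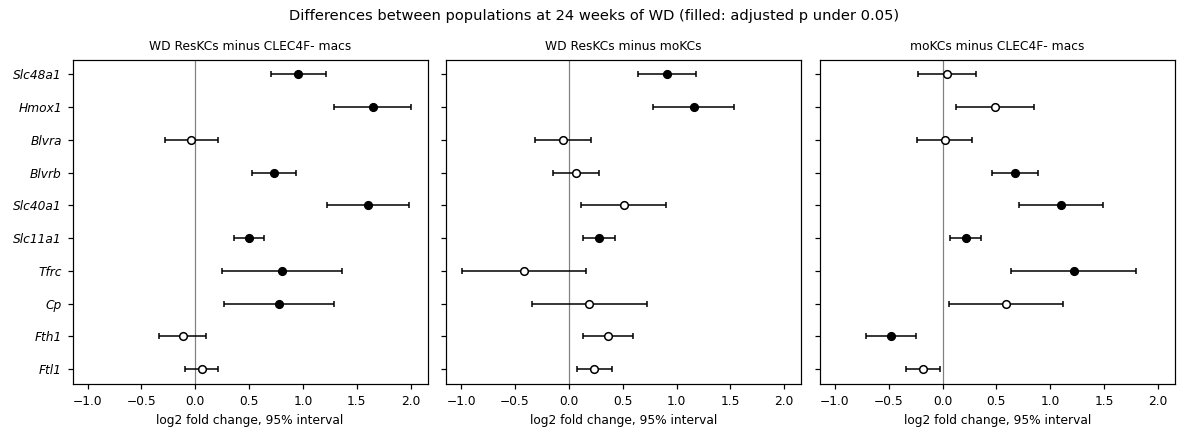
Log2 fold changes (x axis, points with 95% intervals) of the 10 genes (rows) between WD ResKCs, moKCs and CLEC4F- macs at 24 weeks; filled points passed an adjusted p of 0.05. Hmox1 and Slc48a1 lie to the right of 0 in both panels of ResKCs, whereas Blvra lies within 0.06 of 0 in all 3 panels.

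The genes of heme entry and of the first step of its breakdown were highest in the ResKC samples (plot of the heme genes). Slc48a1 (chr15:97778520-97792692, plus strand), the heme transporter, was at 282, 364 and 424 CPM (lowest, median and highest) in WD ResKCs, at 126, 181, 221, 226 and 191 CPM in the 5 moKC samples and at 152, 177 and 226 CPM in CLEC4F- macs. All ResKC samples lay above all samples of the other 2 populations, and those 2 overlapped. The difference was 0.91 on the log2 scale against moKCs (95% interval 0.64 to 1.18, adjusted p = 7.46e-05) and 0.96 against CLEC4F- macs (0.70 to 1.21, adjusted p = 5.37e-07), while moKCs and CLEC4F- macs differed by 0.04 (-0.22 to 0.31, adjusted p = 0.897). Slc48a1 shares sequence with Hdac7 on the opposite strand, a gene with 4115 counts over the series against 151923 for Slc48a1.

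Hmox1 (chr8:75093621-75100589, plus strand), the rate-limiting enzyme of heme breakdown, was at 1726, 2305 and 3048 CPM in WD ResKCs. The moKC samples had 755, 886, 1421, 1166 and 962 CPM, and CLEC4F- macs 466, 691 and 1273 CPM. Here too every ResKC sample exceeded every other sample, and the highest CLEC4F- value was that of replicate 4. Hmox1 was higher in ResKCs by 1.16 on the log2 scale against moKCs (0.79 to 1.54, adjusted p = 0.000272) and by 1.65 against CLEC4F- macs (1.29 to 2.01, adjusted p = 1.23e-08). Without CLEC4F- mac replicate 4 the latter was 1.87 (adjusted p = 9.84e-11). moKCs were above CLEC4F- macs by 0.49 (0.12 to 0.85), which did not pass (adjusted p = 0.072) but did without replicate 4 (0.71, adjusted p = 0.00187).

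**Figure D2:**
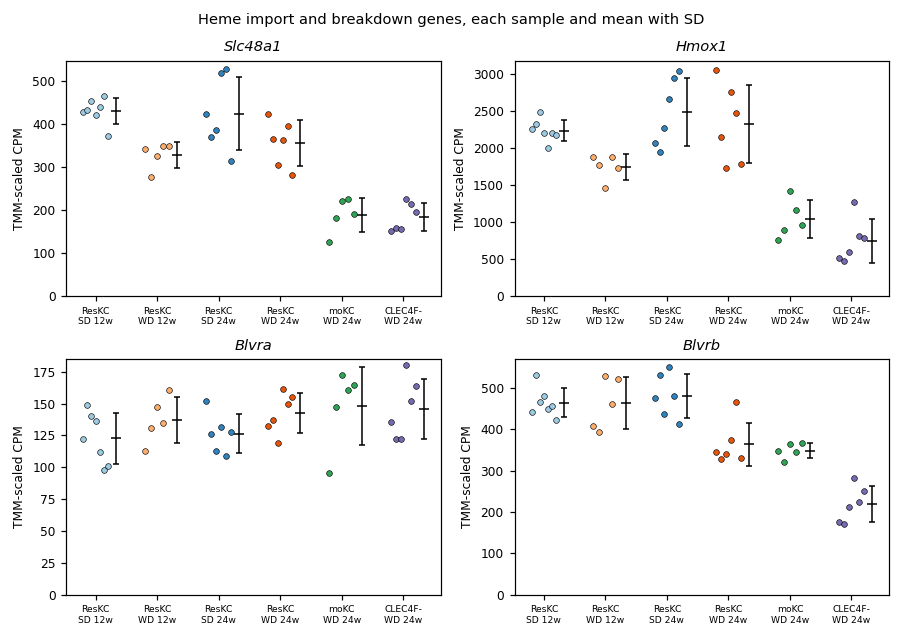
TMM-scaled CPM (y axis, from 0) of Slc48a1, Hmox1, Blvra and Blvrb in each sample of the 6 groups (points), with the mean and SD beside them (bar). The 6 WD ResKC samples at 24 weeks sit above all moKC and CLEC4F- samples for Slc48a1 and Hmox1. For Blvrb the moKC samples (at most 366 CPM) overlap these WD ResKCs. They lie below every SD ResKC sample (from 413 CPM) and every WD ResKC sample at 12 weeks (from 395 CPM).

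The reductase genes did not follow that order. Blvrb (chr7:27447978-27466144, plus strand) was at 329, 343 and 466 CPM in WD ResKCs and at 347, 320, 365, 346 and 366 CPM in moKCs, and these ranges overlapped. CLEC4F- macs had 171, 218 and 281 CPM, below every sample of both KC populations. Blvrb was thus higher than in CLEC4F- macs by 0.73 in ResKCs (0.53 to 0.94, adjusted p = 1.08e-06) and by 0.67 in moKCs (0.46 to 0.88, adjusted p = 2.92e-05), with a difference of 0.06 between the 2 KC populations (-0.15 to 0.28, adjusted p = 0.857). Blvra (chr2:127070665-127097084, plus strand), the other reductase, had group means of 142.5, 148.2 and 146.1 CPM in ResKCs, moKCs and CLEC4F- macs, and its 3 differences lay between -0.06 and 0.02 with intervals inside -0.31 and 0.28. The ratio of Blvrb to Blvra counts was 2.57 ± 0.369 in ResKCs (SD, n = 6), 2.46 ± 0.653 in moKCs (n = 5) and 1.50 ± 0.151 in CLEC4F- macs (n = 6).

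Ferroportin formed a gradient. Slc40a1 (chr1:45908068-45926523, minus strand) was at 7427, 8277 and 10310 CPM in WD ResKCs, at 5141, 5553, 7171, 5656 and 6304 CPM in moKCs, and at 1153, 2633 and 5507 CPM in CLEC4F- macs. ResKCs lay above both other populations without overlap, and moKCs overlapped CLEC4F- macs through replicate 4 alone, whose 5507 CPM compared with 1153 to 2784 CPM in the other 5. The gain was 1.61 on the log2 scale in ResKCs over CLEC4F- macs (1.23 to 1.99, adjusted p = 6.32e-08) and 1.10 in moKCs over CLEC4F- macs (0.71 to 1.49, adjusted p = 0.00013). Without replicate 4 these were 1.92 and 1.41. The latter did not pass when only the 5 same-numbered samples of each of these 2 populations were fitted (1.07, adjusted p = 0.0535). ResKCs and moKCs differed by 0.51 (0.12 to 0.90), which did not pass in the fit of all 6 groups (adjusted p = 0.175) and passed when these 2 groups were fitted alone (0.52, adjusted p = 0.0196).

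Slc11a1 (chr1:74375195-74386062, plus strand) followed the same order within a narrower range. WD ResKCs had 968, 1084 and 1167 CPM, moKCs 919, 897, 877, 875 and 868 CPM, and CLEC4F- macs 653, 778 and 850 CPM, with no overlap between any of the 3. ResKCs exceeded CLEC4F- macs by 0.50 (0.36 to 0.64, adjusted p = 1.38e-06) and moKCs by 0.28 (0.14 to 0.43, adjusted p = 0.03), and moKCs exceeded CLEC4F- macs by 0.21 (0.07 to 0.36, adjusted p = 0.046). The last 2 calls were fragile: leaving out 1 sample at a time kept the call in 4 of 11 and in 3 of 11 cases, and the adjusted p reached 0.0852 and 0.192.

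**Figure D3:**
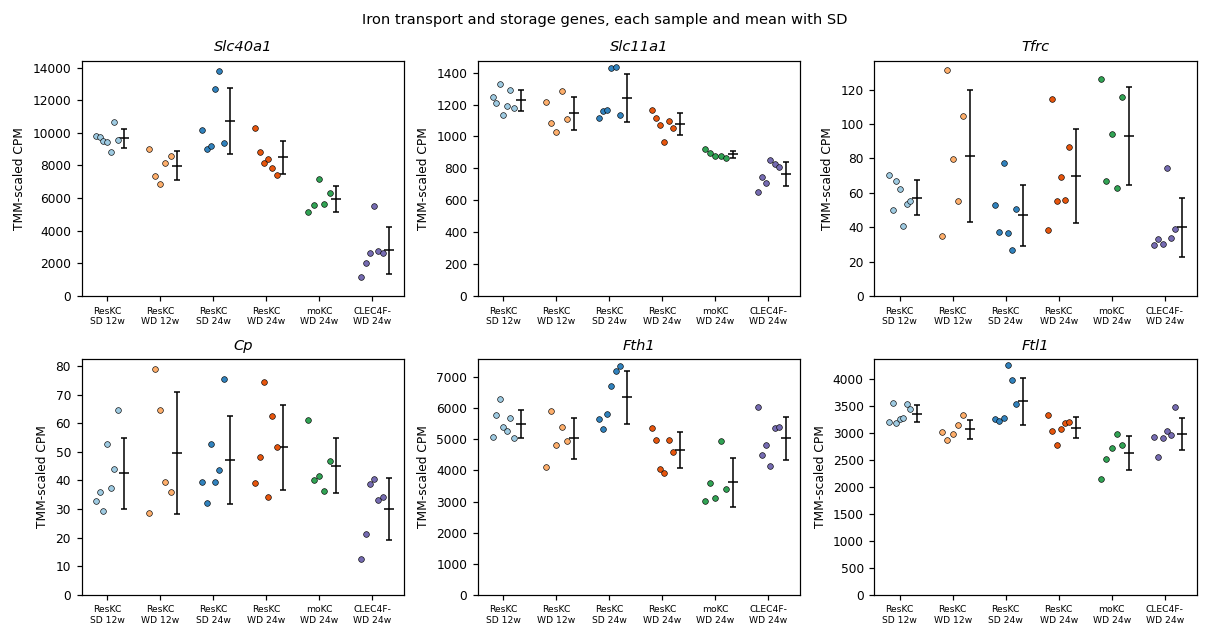
TMM-scaled CPM (y axis, from 0) of the 6 iron transport and storage genes in each sample (points) with the mean and SD of each group (bar). By group mean, Slc40a1 steps down from ResKCs to moKCs to CLEC4F- macs, Tfrc is highest in moKCs and Fth1 lowest in moKCs. Between WD ResKCs at 24 weeks and moKCs none of these genes passed in the fit of all 6 groups. The highest single Tfrc sample is a WD ResKC sample at 12 weeks (131.5 CPM). CLEC4F- mac replicate 4 is the high point of its group for Slc40a1 (5507) and Tfrc (74.4).

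Compared with CLEC4F- macs, moKCs had more mRNA of the transferrin receptor and less of the ferritin heavy chain. Tfrc (chr16:32608920-32632794, plus strand) was at 126, 66.8, 94.1, 62.9 and 116 CPM in moKCs, at 29.5, 33.5 and 74.4 CPM in CLEC4F- macs and at 38.2, 62.3 and 115 CPM in WD ResKCs. All moKC samples lay above 5 of the 6 CLEC4F- samples, the exception being replicate 4. Tfrc was higher in moKCs than in CLEC4F- macs by 1.22 (0.64 to 1.80, adjusted p = 0.0034), and by 1.49 without replicate 4 (adjusted p = 0.000278). Between ResKCs and moKCs the difference was -0.41 (-0.99 to 0.16, adjusted p = 0.534), so the higher mean of moKCs was within the spread of samples. ResKCs exceeded CLEC4F- macs by 0.81 (0.25 to 1.36, adjusted p = 0.0271), a call kept in 6 of 12 fits that left out 1 sample (lowest without ResKC replicate 2, at 0.61, adjusted p = 0.11) and lost with library size scaling (adjusted p = 0.0542) or with an erythroid (0.0886) or stress-gene covariate (0.0536).

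Fth1 (chr19:9980598-9985098, plus strand) was at 3023, 3599, 3116, 4952 and 3405 CPM in moKCs, at 4143, 5084 and 6057 CPM in CLEC4F- macs and at 3916, 4782 and 5375 CPM in WD ResKCs. Of the moKC samples 4 lay below all samples of the other 2 populations, and replicate 4 of moKCs, at 4952 CPM, lay among them. Fth1 was lower in moKCs than in CLEC4F- macs, with a difference of -0.48 on the log2 scale (-0.71 to -0.25, adjusted p = 0.00397). The call held in all 11 fits that left out 1 sample and was lost when only the 5 same-numbered samples of each of these 2 populations were fitted (-0.47, adjusted p = 0.0715). Against ResKCs the difference was 0.36 in favour of ResKCs (0.13 to 0.59), which did not pass (adjusted p = 0.0904) except without moKC replicate 4 (0.50, adjusted p = 0.0129) or with the stress-gene covariate (0.44, adjusted p = 0.0242). ResKCs and CLEC4F- macs differed by -0.12 (-0.34 to 0.10, adjusted p = 0.467). Ftl1 (chr7:45457944-45459884, minus strand) had means of 3096, 2627 and 2974 CPM in ResKCs, moKCs and CLEC4F- macs and passed in none of the 3 comparisons (adjusted p of 0.108 to 0.619; unadjusted p under 0.05 in 2 of them), although by library size scaling it was lower in moKCs than in CLEC4F- macs (-0.26, adjusted p = 0.00472). The ratio of Fth1 to Ftl1 counts was 1.38 ± 0.202 in moKCs (SD, n = 5), 1.50 ± 0.138 in ResKCs (n = 6) and 1.70 ± 0.243 in CLEC4F- macs (n = 6). Reads of 5 ferritin pseudogenes or copies added 0.107% to 0.941% to the ferritin counts of a sample, and reads shared with such copies cannot be assigned with certainty.

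Ceruloplasmin moved with hepatocyte genes. Cp (chr3:19957054-20009145, plus strand) was at 34.2, 49.9 and 74.4 CPM in WD ResKCs, at 61.1, 40.1, 41.5, 36.3 and 46.8 CPM in moKCs and at 12.6, 33.5 and 40.3 CPM in CLEC4F- macs. It was higher in ResKCs than in CLEC4F- macs by 0.78 (0.27 to 1.29, adjusted p = 0.0191), with overlapping samples. The call was kept in 9 of 12 fits that left out 1 sample and lost without CLEC4F- mac replicate 1 (0.61, adjusted p = 0.0681) or 2 (0.68, adjusted p = 0.0563) and without ResKC replicate 3 (0.65, adjusted p = 0.0632). Of 12 other settings 11 kept the call, the hepatocyte covariate among them, and the erythroid covariate lost it (0.72, adjusted p = 0.0643). Over the 35 samples Cp correlated with the mean of 10 hepatocyte genes (r = 0.577, and 0.743 after removing group means; description only, samples share their groups), and its most alike gene was Fgb, a fibrinogen chain made by hepatocytes and on that list (r = 0.777). The summed hepatocyte list was at 1049 to 3427 CPM in ResKCs, 1472 to 3027 CPM in moKCs and 752 to 3131 CPM in CLEC4F- macs, with 0 of 10 genes called between any of the 3 populations. Cp also overlaps Hps3 on the opposite strand, which had 40665 counts over the series against 20742 for Cp. With no strand setting given in the sources used here, reads of this pair cannot be told apart.

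Leaving out CLEC4F- mac replicate 4 ended none of the calls of the 10 genes. ResKCs then exceeded CLEC4F- macs in 7 of 10 genes and fell below them in 0 (34.4% of all genes called), with a median of 0.85. The differences were 1.02 for Slc48a1, 0.82 for Blvrb, 0.53 for Slc11a1, 1.08 for Tfrc (adjusted p = 0.0029) and 0.88 for Cp (adjusted p = 0.0117), beside those of Hmox1 and Slc40a1 given above. moKCs exceeded CLEC4F- macs in 5 genes, Hmox1 being the one gained, and fell below them in 1 (19.3% of all genes called), with a median of 0.47. Here the differences were 0.76 for Blvrb, 0.25 for Slc11a1 and -0.53 for Fth1 (adjusted p = 0.00142).

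Other cell types were measured alongside. The lymphocyte list (3 of 6 genes tested) had 0 genes higher and 3 lower in WD ResKCs than in CLEC4F- macs. It summed to 3.54 to 6.98 CPM in ResKCs and to 7.38 to 92.4 CPM in CLEC4F- macs. Of 6 stellate genes 1 was higher and 2 lower, of 8 endothelial genes 2 were higher and 0 lower. Of 4 neutrophil genes tested 0 were called, beside 33% of all genes. The part of these cells in the results was not tested. The monocyte list (5 of 6 genes tested) had 3 genes, Ly6c2, Ccr2 and Chil3, higher in CLEC4F- macs than in either ResKCs or moKCs, and summed to 359 to 1363 CPM there, 107 to 287 CPM in moKCs and 87.1 to 147 CPM in ResKCs. Hemoglobin and other erythroid genes, of which 1 of 7, Epor, was higher in ResKCs than in CLEC4F- macs, summed to 35.2 to 137 CPM, 30.5 to 86.5 CPM and 4.99 to 60.3 CPM in ResKCs, moKCs and CLEC4F- macs. Without CLEC4F- mac replicate 4, 6 of these 7 erythroid genes were higher in ResKCs than in CLEC4F- macs, among them Hbb-bt (2.23, adjusted p = 0.0138) and Hba-a1 (2.16, adjusted p = 0.0341), and the 3 monocyte genes were lower as before. The erythroid mean correlated with Blvrb (r = 0.711 over 35 samples, 0.534 within groups), Slc40a1 (0.66 and 0.428) and Hmox1 (0.609 and 0.374), again as a description. The calls for these 3 genes and for Slc48a1 in the comparison of ResKCs with CLEC4F- macs held with the erythroid mean as a covariate.

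The western diet itself moved the 10 genes less. At 24 weeks, 0 of 10 genes rose and 2 fell in ResKCs, where 8.71% of all genes were called (4.84% higher, 3.87% lower), and the median log2 fold change of the 10 was -0.21 against 0.004 over all genes. None of the 10 also passed an absolute log2 fold change of 1, as 3.35% of all genes did. Fth1 was at 5327, 6281 and 7352 CPM on SD and at 3916, 4782 and 5375 CPM on WD. A single WD sample (5375 CPM) exceeded the lowest SD sample. Fth1 fell by 0.45 on the log2 scale (95% interval -0.67 to -0.23, adjusted p = 0.011). Blvrb was at 413, 478 and 551 CPM on SD and at 329, 343 and 466 CPM on WD, where 5 samples lay under the SD range and replicate 5 within it, and it fell by 0.40 (-0.61 to -0.20, adjusted p = 0.014).

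**Figure D4:**
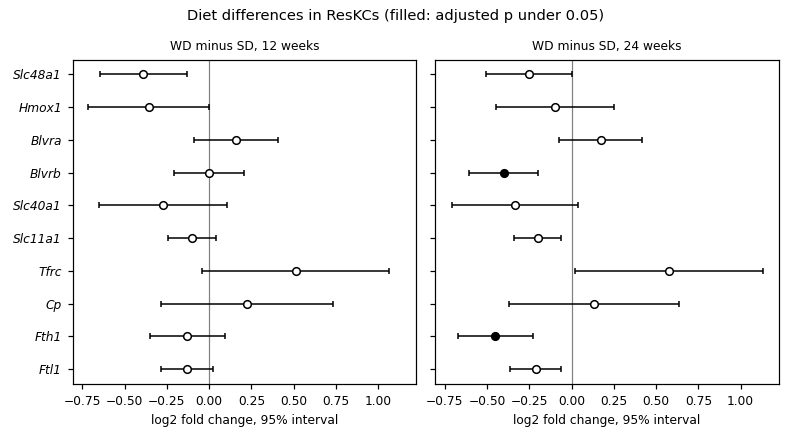
Log2 fold changes of WD over SD (x axis, points with 95% intervals) of the 10 genes (rows) in ResKCs after 12 and 24 weeks; filled points passed an adjusted p of 0.05. Fth1 and Blvrb at 24 weeks are the 2 filled points, and Tfrc and Cp have the widest intervals.

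A list of immediate-early and heat-shock genes was also lower on WD. Of its 10 genes 6 (Fos, Fosb, Jun, Junb, Egr1 and Ier2) were lower on WD and 0 higher at 24 weeks, and its sum was at 1863, 6734 and 10180 CPM on SD against 854, 1607 and 3843 CPM on WD. With the mean of this list as a covariate neither gene passed, at -0.28 for Fth1 (adjusted p = 0.186) and -0.38 for Blvrb (adjusted p = 0.0697), the latter close to its -0.40 without it. Across the 35 samples Fth1 correlated with the list (r = 0.471, and 0.443 within groups) and Blvrb hardly did (0.13 and 0.067). The part of these genes in the diet difference was not tested beyond this covariate. Both calls held in all 12 fits that left out 1 sample.

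Of the other 8 genes at 24 weeks of WD, 3 had an unadjusted p under 0.05 without passing. Slc11a1 differed by -0.20 (adjusted p = 0.0722, or 0.0487 by DESeq2), Ftl1 by -0.21 (adjusted p = 0.081) and Tfrc by 0.58 (0.02 to 1.13, adjusted p = 0.2). Tfrc was at 26.6, 43.9 and 77.5 CPM on SD and at 38.2, 62.3 and 115 CPM on WD, and these ranges overlapped. Ftl1 passed with the naming scheme of the file headers as a covariate (-0.27, adjusted p = 0.0266), the second scheme being that of 0 of 6 SD and 3 of 6 WD samples. Hmox1 differed by -0.10 (-0.45 to 0.25), and Slc40a1 by -0.33 (-0.71 to 0.04, adjusted p = 0.279).

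**Figure D5:**
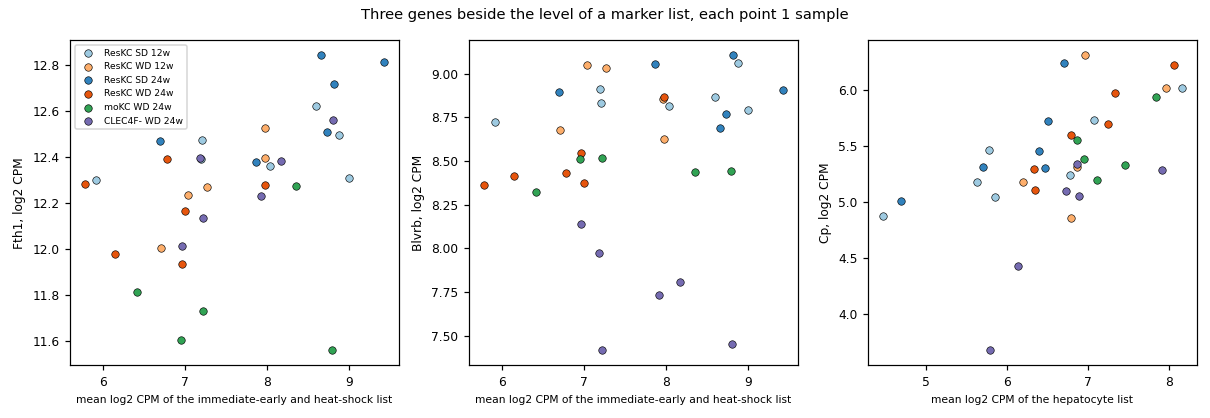
Fth1 and Blvrb against the mean log2 CPM of the immediate-early and heat-shock list, and Cp against that of the hepatocyte list (y and x axes in log2 CPM, each point 1 of 35 samples, coloured by group). Cp rises with the hepatocyte list (r = 0.577) and Fth1 with the immediate-early and heat-shock list (r = 0.471).

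At 12 weeks of WD 0 of 10 genes passed (0.0373% of all genes called; 1 of 10 genes had an unadjusted p under 0.05), and DESeq2 also called 0. The heme entry and oxygenase genes nevertheless had separate samples. Slc48a1 was at 373, 433 and 466 CPM on SD and at 343, 278, 326, 348 and 350 CPM on WD, a difference of -0.39 (-0.65 to -0.13, adjusted p = 0.387). Hmox1 was at 2003, 2205 and 2478 CPM on SD and at 1878, 1765, 1458, 1881 and 1727 CPM on WD. The difference was -0.36 (-0.72 to -0.001, unadjusted p = 0.058, adjusted p = 0.595). Every WD sample lay below every SD sample for these 2 of 10 genes, as for 0.216% of all genes. At 24 weeks both ranges overlapped between the diets. The WD 12 week and SD 24 week samples carried the first of the 2 naming schemes found in the file headers, which the other groups mixed.

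Time on a diet gave no call. Between SD ResKCs at 24 and 12 weeks 0 of 10 genes passed, with 0 at an unadjusted p under 0.05, 0 by DESeq2 and 0% of all genes called. On WD, 0 of 10 passed (3.26% of all genes called; 2 of 10 had an unadjusted p under 0.05). These were Hmox1, at 0.41 (0.05 to 0.78, adjusted p = 0.223), and Blvrb, at -0.35 (-0.56 to -0.14, adjusted p = 0.0685), which passed by DESeq2 (adjusted p = 0.0445) and without WD 24 week replicate 5 (-0.43, adjusted p = 0.0218) or WD 12 week replicate 2 (-0.40, adjusted p = 0.0442). Replicate 5 is the sample with 466 CPM. The diet effects at 24 and 12 weeks were not shown to differ for any of the 10 genes (0 of 10, 0.283% of all genes called; 0 by DESeq2; 1 of 10 with an unadjusted p under 0.05), Blvrb being nearest at -0.40 (-0.69 to -0.11, adjusted p = 0.203).

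Of 46 further iron and heme genes, 42 were tested. In WD ResKCs against CLEC4F- macs, 10 were higher and 3 lower, or 31% of them, which is near the 33% of all genes called there, and the counts were the same without CLEC4F- mac replicate 4. Cd163, the receptor for hemoglobin bound to haptoglobin, was at 880, 1616 and 2007 CPM in ResKCs, at 33.5 to 113 CPM in moKCs and at 9.01 to 28.9 CPM in CLEC4F- macs, a difference of 6.73 on the log2 scale between ResKCs and CLEC4F- macs (adjusted p = 5.64e-17). Hmox2, the second heme oxygenase, was higher by 0.85 (adjusted p = 5.37e-10) and Ncoa4, which delivers ferritin to lysosomes, by 0.83 (adjusted p = 1.35e-07). The 3 lower genes were Alas1, the first enzyme of heme synthesis (-0.73, adjusted p = 0.000531), Slc25a37, a mitochondrial iron importer (-0.73, adjusted p = 0.0296), and Ppox, a late enzyme of heme synthesis (-0.56, adjusted p = 0.00784).

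Against moKCs 4 of the 42 were higher in ResKCs and 0 lower, beside 2.99% of all genes called. These were Cd163 (4.44, adjusted p = 3.52e-12), the ferrireductase Steap3 (0.67, adjusted p = 0.00972), Ncoa4 (0.48, adjusted p = 0.0102) and Hmox2 (0.42, adjusted p = 0.00216). In moKCs against CLEC4F- macs 8 were higher and 1 lower, beside 16.4% of all genes called (8 and 2 without CLEC4F- mac replicate 4, beside 19.3%). Those higher were led by Cd163 (2.30, adjusted p = 6.02e-07), Nr1h3, which encodes the nuclear receptor LXRα (0.68, adjusted p = 2.6e-06) and Hfe, a regulator of hepcidin and transferrin receptors (0.65, adjusted p = 3.33e-05). The median over the 42 genes was -0.001, 0.03 and -0.02 in these 3 comparisons, against 0.76, 0.26 and 0.35 for the 10.

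In ResKCs at 24 weeks of WD, 3 of the 42 genes rose and 4 fell, beside 4.84% and 3.87% of all genes. Hp (haptoglobin, 1.71, adjusted p = 0.0118) and Hpx (hemopexin, 1.46, adjusted p = 0.0196) are plasma proteins made by hepatocytes, and the hepatocyte list, with 1 of 10 genes called higher (Cyp3a11), was at 408 to 1418 CPM on SD and 1049 to 3427 CPM on WD. Their part in the result was not tested. The third gene that rose was Alas1 (0.96, adjusted p = 0.000276). Bmp6, a growth factor made by liver endothelium, fell by 1.70 (adjusted p = 0.0114), from a mean of 20.02 to 6.15 CPM, beside an endothelial list with 1 of 8 genes called lower (Pecam1) and sums of 774 to 1839 CPM on SD and 488 to 999 CPM on WD. Spic, the transcription factor of iron-recycling macrophages, fell by 0.43 (adjusted p = 0.0496), Hfe by 0.36 (adjusted p = 0.024) and the iron-sulfur scaffold Iscu by 0.26 (adjusted p = 0.0202). In the other comparisons over diet and time, 0 of the 42 passed by edgeR, with 2 to 5 of them at an unadjusted p under 0.05.

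Hmox1 is a target of the transcription factors NRF2 and BACH1, and 10 further known targets were read beside it. In WD ResKCs against CLEC4F- macs 4 of these were higher (Gsr by 0.95, Txnrd1 by 0.86, Gclm by 0.54 and Gclc by 0.24) and 1 lower (Slc7a11, the cystine transporter, with a difference of -4.91, at 0.475 against 14.6 CPM), beside 17% and 16.1% of all genes, with the same counts without CLEC4F- mac replicate 4. The sum of the list did not separate the populations, with 2593 to 3042 CPM in ResKCs, 1895 to 2777 CPM in moKCs and 2190 to 2681 CPM in CLEC4F- macs. At 24 weeks of WD 1 of 10 rose in ResKCs, beside 4.84% of all genes, namely Gclc by 0.43 (adjusted p = 0.00102), while Hmox1 differed by -0.10.

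Over the 35 samples, the genes most like Hmox1 in log2 CPM were Gsr, glutathione reductase (r = 0.937), Tspan4 (0.932) and Igsf8 (0.928). Those most like Slc48a1 were Hmox1 (0.918), Pgd, an enzyme of the pentose phosphate pathway (0.913), and Chst8 (0.906), and after removing group means Hmox1 and Slc48a1 still had r = 0.67. The closest to Slc40a1 were Scarb2, a lysosomal membrane protein (0.979), Slc45a3 (0.971) and Fam234a (0.970). Tfrc had no gene as close, Tor3a (0.725), Stard7 (0.718) and Snx2 (0.673) leading. These values describe 35 samples that share 6 groups, and differences between groups enter each of them.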

How the data were processed

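RNA-seq of 35 samples of sorted liver macrophages was used. Per the labels and the study's methods, the authors aligned single reads to mm10 with HISAT2 2.2.0 and made raw counts per gene with featureCounts 2.0.0 (FastQC 0.11.9 and SAMtools 1.10 are also named). The annotation, strand setting and treatment of multiply mapped reads are not given in the sources used here. From the deposited counts, edgeR 4.0.16 (R 4.3.3) fitted 1 quasi-likelihood model of 6 group means with TMM scaling to the 13421 genes over 1 CPM in at least 5 samples, with Benjamini-Hochberg adjustment over all of them. CPM are TMM-scaled, and the 95% intervals use the normal distribution with an SE taken from the F statistic of the test. They take no account of its residual degrees of freedom and are therefore somewhat too narrow. Hmox1 at 12 weeks of WD has an interval that leaves out 0 beside an unadjusted p of 0.058. The code was tested on simulated data. The smallest total of 11568590 counts makes 3 counts worth at most 0.259 CPM, and no named gene rests on so few in both groups. Alternatives were DESeq2 1.42.0, limma-voom (limma 3.58.1), library size scaling, no filter, robust dispersion, the compared groups alone, hepatocyte, erythroid, stress-gene and naming scheme covariates, a replicate block and leaving out each sample. The 10 genes, the lists and the tests were chosen with earlier results of these data known. The text names the 10 genes, up to 3 further iron genes with the highest rise and fall in a comparison, the 3 genes most like Hmox1, Slc40a1, Slc48a1 and Tfrc, and marker genes; Hmox2 against moKCs, Iscu, the gene most like Cp and the NRF2 targets that passed were added after their values were seen. The study counts mice per population, while the labels name no animals, and p-values measure the spread between these samples. Locations are GENCODE M21 (GRCm38, the same assembly as mm10), and 54183 of 54735 symbols matched it. A gene of the wider iron and heme list is included in its counts but is not reported here by name.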

Additional observations from a re-analysis of the deposited data

Results flagged for a closer look

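Of 60 sets of samples (10 genes in 6 groups) 3 held a sample far from the rest by Dixon's test on log2 CPM, which chance gives in about 1 set in 20. Tfrc was at 74.4 CPM in CLEC4F- mac replicate 4 against 29.5 to 39.0 CPM in the other 5 samples. This is the sample with the highest Clec4f of its group. Blvrb was at 466 CPM in WD ResKC replicate 5 at 24 weeks against 329 to 373 CPM in the other 5, and without it the fall of Blvrb on WD was the widest of the fits that left out 1 sample (-0.48 on the log2 scale). Blvra was at 95.7 CPM in moKC replicate 1 against 147 to 172 CPM in the other 4.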

How the results depend on the processing

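The counts of called genes among the 10 were compared with those of other settings. When an absolute log2 fold change over 1 was asked as well, 0 genes were called for the diet at 24 weeks, 2 for ResKCs against CLEC4F- macs, 1 for ResKCs against moKCs and 2 for moKCs against CLEC4F- macs. The stress-gene covariate left 0 for the diet at 24 weeks. For WD ResKCs at 24 against 12 weeks, where 0 were called, DESeq2 and the naming scheme covariate each called 1, and leaving out 1 sample gave 0 to 1. In no comparison did every same-numbered pair of samples deviate together with r over 0.1 (means of -0.122 to 0.117), so the numbers were not taken as pairs. All 6 pairs of WD ResKCs and CLEC4F- macs were nevertheless positive (0.024 to 0.263), and 5 of 6 ResKC samples correlated best with their own number. All 5 pairs of WD ResKCs at 24 and 12 weeks were positive too (0.027 to 0.282), 3 of 5 with their own number highest. The replicate block, which treats equal numbers as pairs, called 2 for moKCs against CLEC4F- macs, as did the same samples without the block (an alternative added after seeing the data), and called 1 for WD ResKCs at 24 against 12 weeks, Hmox1 (0.46, adjusted p = 0.038). For moKCs against CLEC4F- macs the block did not call Tfrc (1.26, adjusted p = 0.064), Fth1 (-0.48, adjusted p = 0.169) or Slc11a1 (0.22, adjusted p = 0.232), and for ResKCs against moKCs it did not call Slc11a1 (0.30, adjusted p = 0.135). It changed no other call of the 10 genes. Leaving out 1 sample gave 5 to 7 genes for ResKCs against CLEC4F- macs, 2 to 3 for ResKCs against moKCs and 4 to 6 for moKCs against CLEC4F- macs. The lowest count for ResKCs against moKCs came from the loss of Slc11a1. The refits of the other lists without CLEC4F- mac replicate 4 were added after seeing the data. Library size scaling turned the share of higher among all calls from 56.9% to 38.8% for moKCs against CLEC4F- macs, from 55.6% to 77% for the diet at 24 weeks and from 47% to 65% for WD ResKCs at 24 against 12 weeks. Of 36 single-gene values with an unadjusted p under 0.1, over 873 refits, 0 changed sign, 44 refits lost a call and 15 gained one. Of the 44 other values, 26 changed sign in 90 of 1147 refits. The causes were not tested. With 5 to 7 samples per group, a change smaller than the distance from a value to the end of its 95% interval cannot be told from 0.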
